A study of Arabidopsis thaliana with 39 samples.

Results

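Of the 806 genes in the table of Arabidopsis root epidermis, 161 were lower 6 h after seedlings were moved to fresh iron-sufficient (+Fe) medium and stood at similar levels on iron-deficient (-Fe) and +Fe medium at 36 h. A gene was a member where the log2 ratio of RPKM + 1 of +Fe 6 h to +Fe 0 h was at most -0.75 and that of -Fe 36 h to +Fe 36 h lay between -0.75 and 0.75. RPKM counts reads relative to the length of the gene and to a total of reads, and a ratio of RPKM + 1 understates the change of genes with low values. The members were therefore chosen by their values at +Fe 0 h, +Fe 6 h and both media at 36 h, and what those values show is given as a description. Among all 806 genes, 189 (23.4%) met the first condition, and 28 of these lay outside the band at 36 h, among them the nitrate transporter NRT1.1, the nitrate reductase NIA1 and the iron storage protein FER1. A further 5 genes are left out by name, and 0 of them met both conditions. Throughout, "lower" and "higher" are used for a log2 ratio of at most -0.75 or at least 0.75, unless another size is given.

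The members show the root epidermis in the hours after a transfer in which iron supply did not change, beside the same transfer to medium without available iron. Seedlings of the pWER::GFP line in the Col-0 accession, in which the WEREWOLF promoter drives a green fluorescent protein in the root epidermis, were grown on +Fe medium with 0.1 mM FeEDTA and were 7 days old at 0 h. They were then moved to +Fe medium or to -Fe medium, which holds 300 µM of the iron chelator ferrozine and, by the sample labels but not by the methods of the study, no FeEDTA. Roots taken at 6, 12, 18, 24, 30 and 36 h, and at 0 h before the move, gave protoplasts for fluorescence-activated sorting, with 3 libraries in each of 13 groups. No group stayed on the first plate, so the hour of harvest, the move itself and the age of the plant cannot be told apart, and the WEREWOLF promoter is also active in lateral root cap cells. The table holds 1 RPKM value per gene and group, so no value has a spread, no difference was tested, and "higher" and "lower" describe single values. Every ratio to 0 h uses the same 0 h value.

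The epidermis is the outer cell layer of the root and takes up water and mineral nutrients. As its cells leave the division zone they enlarge, for which wall-loosening proteins such as expansins and xyloglucan endotransglucosylases act on a wall that also holds pectins and arabinogalactan proteins, and auxin made by YUCCA enzymes is one of the hormones that set the rate. Epidermal cells also answer touch, cold, drying and osmotic change with a set of protective proteins, among them late embryogenesis abundant (LEA) and small membrane proteins, and glycosylate or oxidise many small molecules through UDP-glycosyltransferases and cytochromes P450.

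In the deposited values, the sum over genes of RPKM times exon length was almost equal between the 13 groups (coefficient of variation 0.325%). A gene's value is therefore relative to the other genes of the table, and the 806, a table of genes named as differentially expressed, are not an unselected set. The members held 25.4% of that total at 0 h, 12.3% at +Fe 6 h, 18.4% at -Fe 6 h and 21.6% at +Fe 36 h. Over all 806 genes the median log2 ratio to 0 h was -0.22 at +Fe 6 h and -0.09 at -Fe 6 h. Of 33 marker genes of root cell types, 3 were analysed here and 0 are members. The epidermal regulator GL2 stood at 189 RPKM at 0 h and 404 RPKM on +Fe and 168 RPKM on -Fe medium at 6 h. GL3, another epidermal regulator, stood at 19.9, 44.0 and 18.8 RPKM in the same order. The root cap gene BRN1 stood at 1601, 1451 and 1470.4 RPKM. Both epidermal regulators thus stood higher at +Fe 6 h, where the members were low, and the root cap marker differed little. Their part in the members' values was not tested. In sorted cells in bulk, fewer cells of a type and less RNA per cell cannot be told apart.

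On +Fe medium at 6 h the 161 members had a median log2 ratio to 0 h of -1.07, with quartiles of -1.46 and -0.91, and the lowest was -3.58. The median member kept 47.6% of its 0 h level on +Fe and 70.1% on -Fe medium at 6 h. By 36 h this share was 80.0% on +Fe and 85.7% on -Fe medium. The members' RPKM at 0 h ran from 18.1 to 22223 with a median of 370.5, against 189.5 for the other 645 genes. Of the members, 25 were under 100 RPKM and 33 over 1000 RPKM at 0 h, and 0 were listed at 0 in any group. Just inside the limit at 6 h were hemb2 at -0.75, ENODL2 at -0.76 and ADC1 at -0.76, and just outside were AT1G05280, AT3G45230 and LTP5, each at -0.74. At 36 h, the members nearest to the band's edges were EXPB1 at -0.70, LSU2 at 0.67 and AT1G51035 at 0.67, and just outside were PE11 at 0.77, AER at -0.77 and TRM11 at 0.77.

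**Figure D1:**
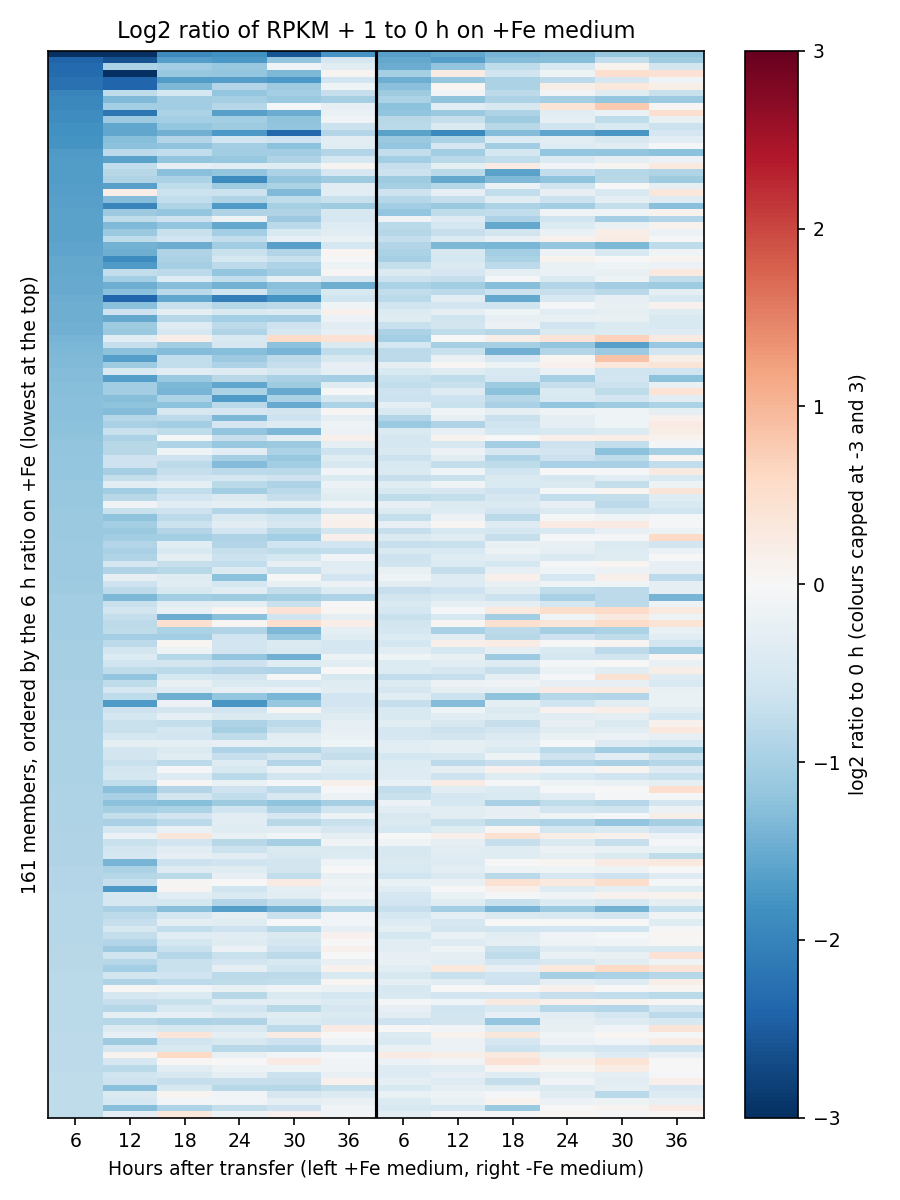
Log2 ratio of RPKM + 1 to 0 h of the 161 members (rows, ordered by the ratio at +Fe 6 h) at 6 to 36 h on +Fe (left) and -Fe medium (right), with blue for values under 0 h and red for values over it. The first column, which chose the members, is blue throughout, the -Fe columns are paler, and most rows approach white at 36 h.

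The member with the lowest ratio was ABCB15 (AT3G28345), an ABC transporter of the plasma membrane. In the order 6, 12, 18, 24, 30 and 36 h, which is kept for all courses given here, ABCB15 stood at 403 RPKM at 0 h and at 32.8, 29.4, 106, 114, 65.6 and 117 RPKM on +Fe medium. For ABCB15, -Fe medium gave 129.9, 137, 152, 159.5, 184 and 178 RPKM. It was under its 0 h level in all 12 later groups, by a log2 ratio of -3.58 at +Fe 6 h and -1.62 at -Fe 6 h, and was still at -1.77 on +Fe and -1.17 on -Fe medium at 36 h. EXPA1 (AT1G69530), an alpha-expansin that loosens the wall of growing cells, stood at 265 RPKM at 0 h and at 48.9, 42.5, 84.0, 80.0, 118 and 186 RPKM on +Fe medium. For EXPA1, -Fe medium gave 90.2, 84.0, 107, 109.5, 157 and 125 RPKM. Its values were lowest at 12 h on both media, and at 36 h it was at -0.51 on +Fe but still at -1.07 on -Fe medium. The thioredoxin-fold protein AT1G48070 stood at 291 RPKM at 0 h and at 57.2, 151, 140.1, 132, 265 and 232 RPKM on +Fe medium. For AT1G48070, -Fe medium gave 103, 128, 171, 213, 312 and 198 RPKM. Like EXPA1 it was low on both media at 6 h, with log2 ratios of -2.32 and -1.49, and by 36 h it was back above the limit on both.

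PP2-A10 (AT1G10155), related to phloem lectins, and the uncharacterised AT1G10160 had much the same course. PP2-A10 stood at 67.9 RPKM at 0 h and at 12.9, 5.90, 30.5, 29.8, 26.0 and 71.4 RPKM on +Fe medium. For PP2-A10, -Fe medium gave 33.3, 81.3, 44.2, 60.8, 97.2 and 91.7 RPKM. AT1G10160 stood at 594 RPKM at 0 h and at 126, 113, 232, 323, 283 and 544 RPKM on +Fe medium. For AT1G10160, -Fe medium gave 247, 615, 309, 669, 737 and 671 RPKM. Both were lowest on +Fe medium at 12 h while the -Fe values had returned to about the 0 h level, a gap between the media of 3.58 for PP2-A10 and 2.44 for AT1G10160 on the log2 scale. The exons of PP2-A10 share 1790 bases with AT1G10150 on the opposite strand, and the use of strand in counting is not given in the sources used here, so reads of the pair may not be told apart. CYP78A9 (AT3G61880), a cytochrome P450 of a family that promotes organ growth, stood at 201 RPKM at 0 h and at 42.0, 37.8, 62.1, 63.4, 60.1 and 134 RPKM on +Fe medium. For CYP78A9, -Fe medium gave 72.3, 91.0, 103, 117, 142 and 184 RPKM. On -Fe medium it came above the limit at 30 h, and at 36 h it did so on +Fe medium.

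The remaining members of the 10 with the lowest ratios were MEE23, PATL1, AT3G19430 and LSU2. MEE23 (AT2G34790), a berberine bridge enzyme-like protein, had 99.6 RPKM at 0 h, 24.3 RPKM on +Fe and 47.1 RPKM on -Fe medium at 6 h, and 61.0 and 62.0 RPKM at 36 h. PATL1 (AT1G72150), a patellin that binds phosphoinositides and marks the forming cell plate, had 358 RPKM at 0 h, 92.3 RPKM on +Fe and 184 RPKM on -Fe medium at 6 h, and 179 and 168 RPKM at 36 h, and so was still lower on both media at 36 h, at -0.99 and -1.09 against 0 h. AT3G19430, a LEA-related protein and one of the most abundant members, stood at 7422 RPKM at 0 h and at 1944, 3686, 3591, 4109, 7298 and 6251 RPKM on +Fe medium. For AT3G19430, -Fe medium gave 3149.7, 5890.2, 5305, 9785, 12804 and 7546 RPKM. It was under 0 h on +Fe medium at every time and over it on -Fe medium from 24 h, and at 30 h it was one of 2 members that were higher than at 0 h on -Fe medium. LSU2 (AT5G24660), a small protein of the group induced by low sulfur, stood at 146 RPKM at 0 h and at 39.5, 31.6, 75.8, 46.6, 51.1 and 128 RPKM on +Fe medium. For LSU2, -Fe medium gave 63.5, 66.7, 76.9, 117, 128 and 205 RPKM. LSU2 ended over its 0 h level on -Fe and under it on +Fe medium.

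The 5 most abundant members at 0 h were AGP2, AT5G54370, RCI2B, sks15 and AT3G19430. The arabinogalactan protein AGP2 (AT2G22470), a wall and plasma membrane proteoglycan, stood at 22223 RPKM at 0 h and at 11174, 13101, 12899, 12017, 11763 and 21876 RPKM on +Fe medium. For AGP2, -Fe medium gave 16806, 15721, 13856, 19342, 17520.5 and 25259 RPKM. On +Fe medium its level kept near the 6 h value until 30 h and only the 36 h value was near that of 0 h. AT5G54370, a LEA-like protein, had 20156 RPKM at 0 h, 10113 RPKM on +Fe and 15077 RPKM on -Fe medium at 6 h, and 15999 and 17381 RPKM at 36 h. The copper oxidase-like protein sks15 (AT4G37160), a relative of SKU5, which acts in root growth direction, had 10103 RPKM at 0 h, 5901 RPKM on +Fe and 8924 RPKM on -Fe medium at 6 h, and 9548 and 10180.2 RPKM at 36 h. Log2 ratios at +Fe 6 h were -0.99 for AGP2, -0.99 for AT5G54370 and -0.78 for sks15, against -1.93 for AT3G19430.

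On -Fe medium at 6 h, 35 of the 161 members were lower as well (21.7%), where 7.07% of all 806 genes were lower, and the other 126 lay above the limit. This count depends on the 0 h value: with the mean log2 value of +Fe 0 h and +Fe 36 h as the start, the rule gave 126 members, of which 20 (15.9%) were lower on -Fe medium. No share over all genes was computed for that start, and the 7.07% refers to 0 h. Counted for the members only, 158 of the 161 were under their 0 h level at any size. The members' median log2 ratio was -0.51 (others 0.03, all 806 genes -0.09). The 3 members not under 0 h were the lysophosphatidyl acyltransferase LPAT3 at 0.00, AT4G08555 at 0.01 and the transporter-like AT5G42210 at 0.24. The fall on -Fe medium came to a median of 48.1% of that on +Fe medium on the log2 scale, and the value on +Fe was under that on -Fe medium in all 161 members. Both comparisons share the 0 h value, and the +Fe 6 h value chose the members, so these shares are a description only.

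**Figure D2:**
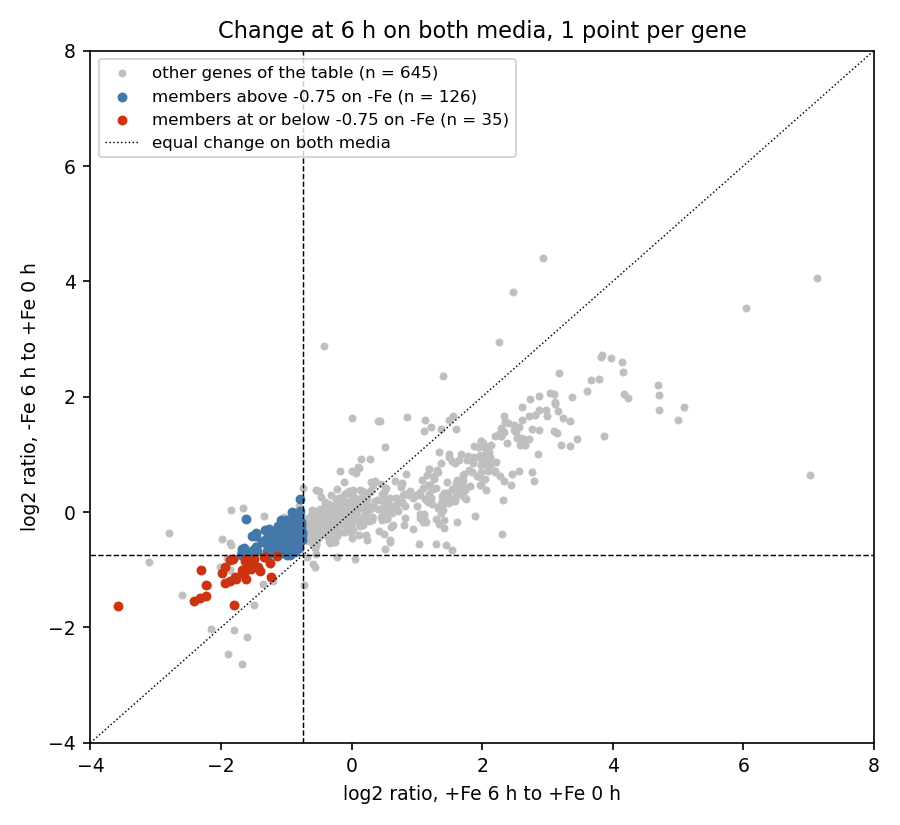
Log2 ratio of RPKM + 1 to 0 h at 6 h on +Fe (x axis) and -Fe medium (y axis), 1 point per gene for all 806 genes, with members in colour and dashed lines at -0.75. All 161 members lie above the dotted line of equal change, 35 of them (red) at or below -0.75 on -Fe medium.

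The members that were lower on both media with the lowest -Fe values were ABCB15, HSFA6B, EXPA1, AT1G48070, CYP78A9 and AT1G10160. HSFA6B (AT3G22830), a heat shock transcription factor, stood at 142 RPKM at 0 h and at 39.9, 47.8, 52.0, 42.4, 27.0 and 76.2 RPKM on +Fe medium. For HSFA6B, -Fe medium gave 46.1, 36.4, 56.8, 46.7, 42.0 and 100.5 RPKM. It was lower by nearly the same size on both media at 6 h, at -1.81 on +Fe and -1.60 on -Fe medium. The wall gene PDCB4, for a callose-binding protein of plasmodesmata, was still more nearly equal between the media, with -1.24 and -1.12. At the other end, the 6 members with the largest gap between the media at 6 h were ABCB15, AT5G59530, PP2-A10, AT1G75590, AT3G46080 and BBX31. AT5G59530, a 2-oxoglutarate-dependent dioxygenase, had 21.4 RPKM at 0 h, 6.32 RPKM on +Fe and 19.7 RPKM on -Fe medium at 6 h, and 14.8 and 11.2 RPKM at 36 h, but 16 bases of its exons are shared with a gene on the same strand. AT3G46080, a C2H2 zinc finger protein, stood at 1831 RPKM at 0 h and at 664, 631, 1013, 904, 890.1 and 1628 RPKM on +Fe medium. For AT3G46080, -Fe medium gave 1423, 1219.5, 1532, 1581, 1565 and 1325 RPKM. The B-box protein BBX31 (AT3G21890), a light-signalling regulator, had 79.2 RPKM at 0 h, 28.1 RPKM on +Fe and 59.3 RPKM on -Fe medium at 6 h, and 86.7 and 61.2 RPKM at 36 h. For these last 3 the 6 h value on -Fe medium was -0.12, -0.36 and -0.41 against 0 h, all above the limit.

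After 6 h the members took different courses on +Fe medium. At 12 h 97 members (60.2%) were lower than at 0 h, where 19.1% of all genes were. This number was 64 at 18 h (39.8%, against 13% of all genes), and 75 both at 24 h (46.6% against 14.9%) and at 30 h (46.6% against 15.5%). By 36 h it was 13 (8.07% against 5.33%). The median ratio was -0.84 at 12 h, close to -0.7 from 18 to 30 h (-0.66, -0.70 and -0.69), and -0.32 at 36 h. Of the 161, 99 had their lowest +Fe value at 6 h and 35 at 12 h. The +Fe 6 h value chose the members, which favours a lowest value there. A total of 39 members were lower at 6 h alone, 37 at every time from 6 to 30 h, and 50 came above the limit and were lower again later. These courses were counted for the members only, with no share over all genes. On -Fe medium 26 members were lower at 12 h (16.1% against 6.08% of all genes), 46 at 18 h (28.6% against 10.3%) and 26 at 24 h (16.1% against 12.2%). The later numbers there were 34 at 30 h (21.1% against 17.7%) and 24 at 36 h (14.9% against 12.7%). Counted for the members only, the lowest -Fe value fell at 6 h in 57 and at 18 h in 42, while 5 were lowest at 18 h on +Fe medium. Of the -Fe times, 18 h had the most lower members, with a median ratio of -0.50 that was close to the -0.51 at 6 h, where it was -0.39 at 12 h and -0.32 at 24 h. With the mean of +Fe 0 h and +Fe 36 h as the start, 41 of the 126 members were lower on +Fe medium at 18 h and 41 at 30 h, and 11, 24, 5 and 10 on -Fe medium at 12, 18, 24 and 30 h. For that start no share over all genes was computed. Against 0 h itself, the members' share that was lower on -Fe medium was near that of all genes from 24 h on. At 30 h 2 members (AT3G19430 and CKX4) were higher than at 0 h on -Fe medium, as were 5.96% of all genes. At -Fe 24 h 0 members were higher, where 4.96% of all genes were.

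**Figure D3:**
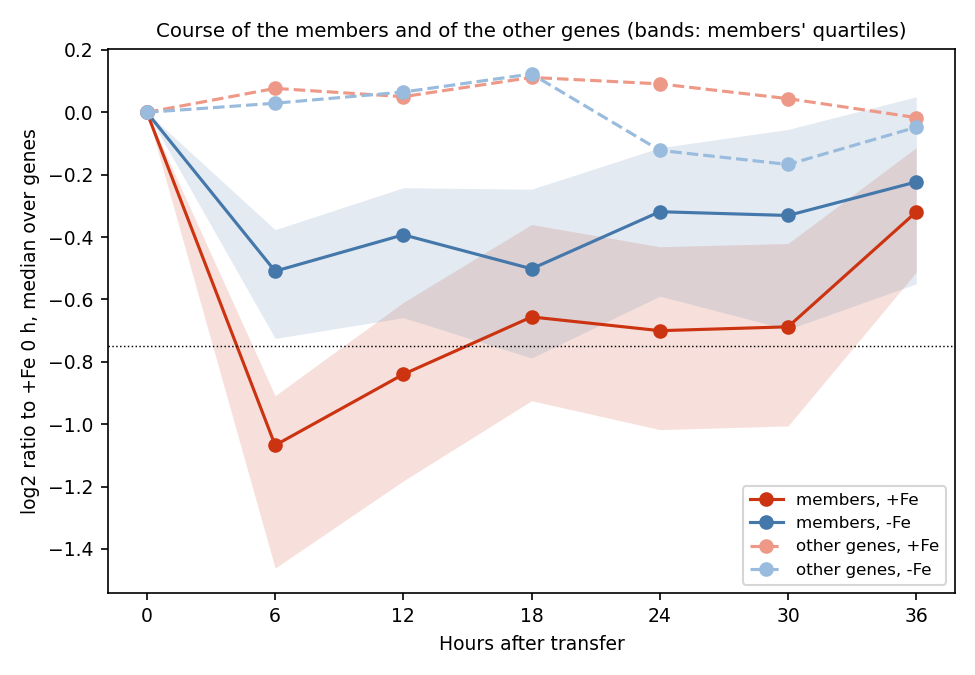
Median log2 ratio of RPKM + 1 to 0 h against hours after transfer for the 161 members (solid lines, with bands from the lower to the upper quartile) and the other 645 genes (dashed lines) on +Fe (red) and -Fe medium (blue), with the limit of -0.75 dotted. The members' medians run from -1.07 at 6 h to -0.32 at 36 h on +Fe and from -0.51 to -0.22 on -Fe medium, while those of the other genes stay near 0.

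Because the 0 h value helped to choose the members, the +Fe course was also set against +Fe 36 h, which the rule used only in its ratio to -Fe 36 h. Against +Fe 36 h the members had a median log2 ratio of -0.56 at 12 h, where the other genes had 0.13, and 56 members (34.8%) were lower, as were 10.9% of all genes. Relative to 36 h, 31 members were lower at 18 h (19.3% against 5.83% of all genes), 32 at 24 h (19.9% against 6.2%) and 31 at 30 h (19.3% against 6.82%). Set against -Fe 36 h, 14 members were lower on -Fe medium at 12 h (8.7% against 9.18%) and 36 at 18 h (22.4% against 10.2%). Only 4 were lower at 24 h and 4 at 30 h (2.48% each, against 10% and 8.06%). The median ratio to -Fe 36 h was -0.21 at 12 h and -0.20 at 18 h, so without the 0 h value 18 h stood apart on -Fe medium by the count and not by the median.

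At 12, 18, 24 and 30 h the ratio of -Fe to +Fe medium uses no value that chose the members, but the band at 36 h left out genes whose gap lasted. At 18 h, genes left out by it stood at 1.46 (NRT1.1), 1.30 (NIA1) and -1.52 (FER1). The members' counts in both directions at these times are therefore not independent of the rule. At 12 h 35 members (21.7%) were higher on -Fe medium, where 10.8% of all genes were. This number was 1 at 18 h (0.621% against 6.82%), 26 at 24 h (16.1% against 9.31%) and 26 at 30 h (16.1% against 11.3%). Not one member (0) was lower on -Fe medium at any of the 4 times, where 23.6%, 11.4%, 30.1% and 26.2% of all genes were. Medians of the members' ratio were 0.39, 0.11, 0.40 and 0.34 at these times, against -0.07, -0.02, -0.15 and -0.11 for the other genes. The members therefore stood over the other genes in this ratio at 12, 24 and 30 h and came close to them at 18 h. Of the other genes, 227 (35.2%) were higher at +Fe 6 h than at 0 h. Among genes that also fell at +Fe 6 h but lay outside the band, the ratio at 12 h was 1.79 for NRT1.1, 1.45 for NIA1 and 0.13 for FER1. A higher value on -Fe medium was thus not particular to the members. At 6 h, where the +Fe value was used by the rule, 43 members were higher on -Fe medium (26.7% against 9.18%) and 0 were lower, where 23.3% of all genes were. The band of the rule itself left 0 members past the limit at 36 h, where 9.8% of all genes were higher and 13.8% lower on -Fe medium. With each group centred on the median of all genes, which differed from that of 0 h by -0.27 on the log2 scale at -Fe 24 h and at -Fe 30 h and by -0.18 to 0.04 in the other groups, the rule gave 174 members. Of these, 68 were higher on -Fe medium at 6 h and 53 at 24 h, and 11 and 16 were lower than at 0 h on -Fe medium at 24 and 30 h. No share over all genes was computed with this centring, so the shares above are not its background. The 1 member higher on -Fe medium at 18 h was DGR1, a cell wall protein with a DUF642 domain, at 8735 RPKM against 4584 RPKM. At 12, 24 and 30 h alike, 8 members were higher on -Fe medium: PP2-A10, AT1G10160, CYP78A9, LSU2, the calcium pump gene AT3G63380, AT3G46080, the cytokinin oxidase CKX4 and YUC8. This joint count was made for the members only. With 1 value per group, how far the near-equality at 18 h belongs to single libraries was not tested.

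**Figure D4:**
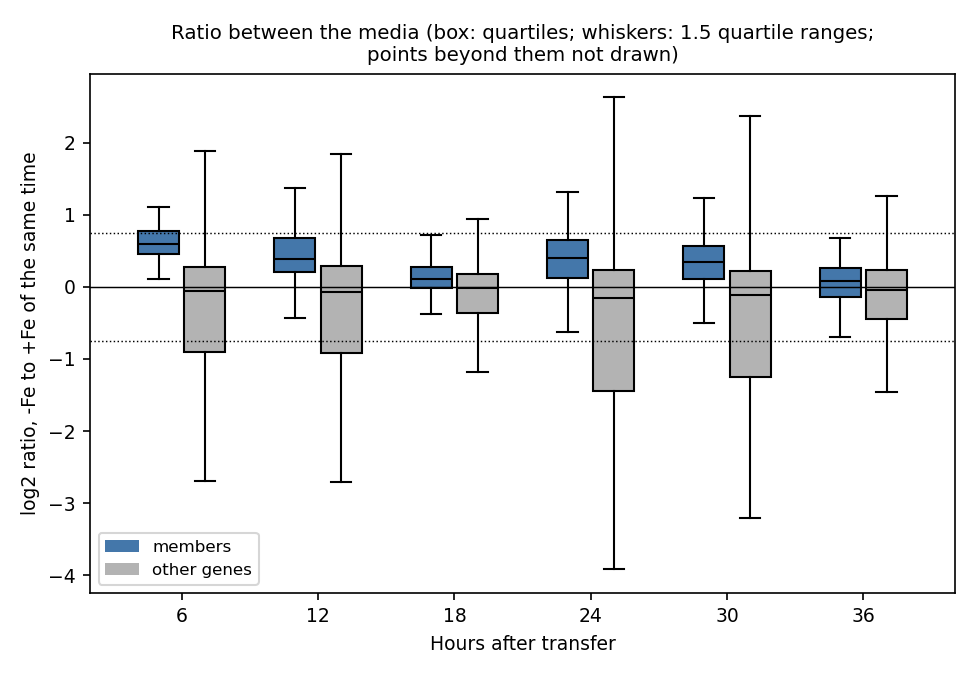
Log2 ratio of -Fe to +Fe medium at each time for the 161 members (blue) and the other 645 genes (grey), as boxes from the lower to the upper quartile with the median as a line and dotted lines at -0.75 and 0.75. From left to right the members' medians are 0.60, 0.39, 0.11, 0.40, 0.34 and 0.08, with the lowest before 36 h at 18 h.

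By 36 h on +Fe medium 148 of the 161 members (91.9%) stood above the limit against 0 h, as did 94.7% of all 806 genes, and on -Fe medium 137 (85.1%, against 87.3%) did. The members recovered in these terms on both media in 133 cases, on +Fe medium only in 15, on -Fe medium only in 4 and on neither in 9. Reaching the 0 h level itself, counted for the members only, was less frequent, in 22 on +Fe and 47 on -Fe medium. By the limit, 0 members were higher than at 0 h on either, where 5.58% of all genes were on +Fe and 9.68% on -Fe medium. Of the 35 members that were lower on -Fe medium at 6 h, 28 recovered on +Fe medium by 36 h and 7 did not, and of the other 126, 120 did and 6 did not. On +Fe medium 64 members were first above the limit at 12 h, 41 at 18 h and 14 at 24 h. Another 5 followed at 30 h and 25 at 36 h, and 12 were lower at all 6 times. The joint counts and the times of first return were made for the members only, with no share over all genes.

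The 13 members that stayed lower on +Fe medium at 36 h were ABCB15, AT5G62420, AT4G26880, TPR12, SUS3, PATL1, ASPGB1, AT1G18980, NIA2, AT4G33040, HSFA6B, AT3G10470 and AT5G17650. AT5G62420, an aldo-keto reductase, stood at 250.4 RPKM at 0 h and at 87.2, 89.7, 103, 92.7, 104 and 89.9 RPKM on +Fe medium. For AT5G62420, -Fe medium gave 129, 120.2, 102, 136, 121 and 119 RPKM. On +Fe medium it was at -1.47 at 36 h, about as low as at 6 h, though 111 bases of its exons are shared with a gene on the same strand. AT4G26880, a STIG1-like cysteine-rich secreted protein, had 332 RPKM at 0 h, 103 RPKM on +Fe and 158 RPKM on -Fe medium at 6 h, and 158 and 157 RPKM at 36 h. SUS3 (AT4G02280), a sucrose synthase, which splits sucrose for use in wall and starch synthesis, had 289 RPKM at 0 h, 117 RPKM on +Fe and 181 RPKM on -Fe medium at 6 h, and 142 and 123 RPKM at 36 h. The tetratricopeptide repeat protein TPR12 (AT1G78120) had 31.9 RPKM at 0 h, 9.64 RPKM on +Fe and 15.3 RPKM on -Fe medium at 6 h, and 14.8 and 12.8 RPKM at 36 h. All 4 were lower at 36 h on -Fe medium too, at -1.06 for AT5G62420, -1.07 for AT4G26880, -1.23 for SUS3 and -1.25 for TPR12.

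The members that stood highest against 0 h at 36 h on +Fe medium were CIPK19, AT4G08555, AT5G51470, UGT75B1 and AT3G12510. CIPK19 (AT5G45810), a protein kinase that acts with calcineurin B-like calcium sensors, stood at 59.3 RPKM at 0 h and at 21.9, 46.9, 67.9, 42.6, 88.0 and 79.9 RPKM on +Fe medium. For CIPK19, -Fe medium gave 28.7, 59.8, 67.5, 78.3, 96.9 and 71.6 RPKM. On +Fe medium it had passed its 0 h level by 18 h, dropped under it at 24 h and ended at 0.42. AT4G08555, which is uncharacterised, had 2858 RPKM at 0 h, 1645 RPKM on +Fe and 2882 RPKM on -Fe medium at 6 h, and 3410.1 and 3748 RPKM at 36 h. AT3G12510, a MADS-box protein whose exons share 723 bases with an antisense gene, had 961 RPKM at 0 h, 447 RPKM on +Fe and 712 RPKM on -Fe medium at 6 h, and 1071 and 1428 RPKM at 36 h. Against 0 h, their log2 ratios at 36 h were 0.25 and 0.16 on +Fe and 0.39 and 0.57 on -Fe medium, within the limit on both.

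**Figure D5:**
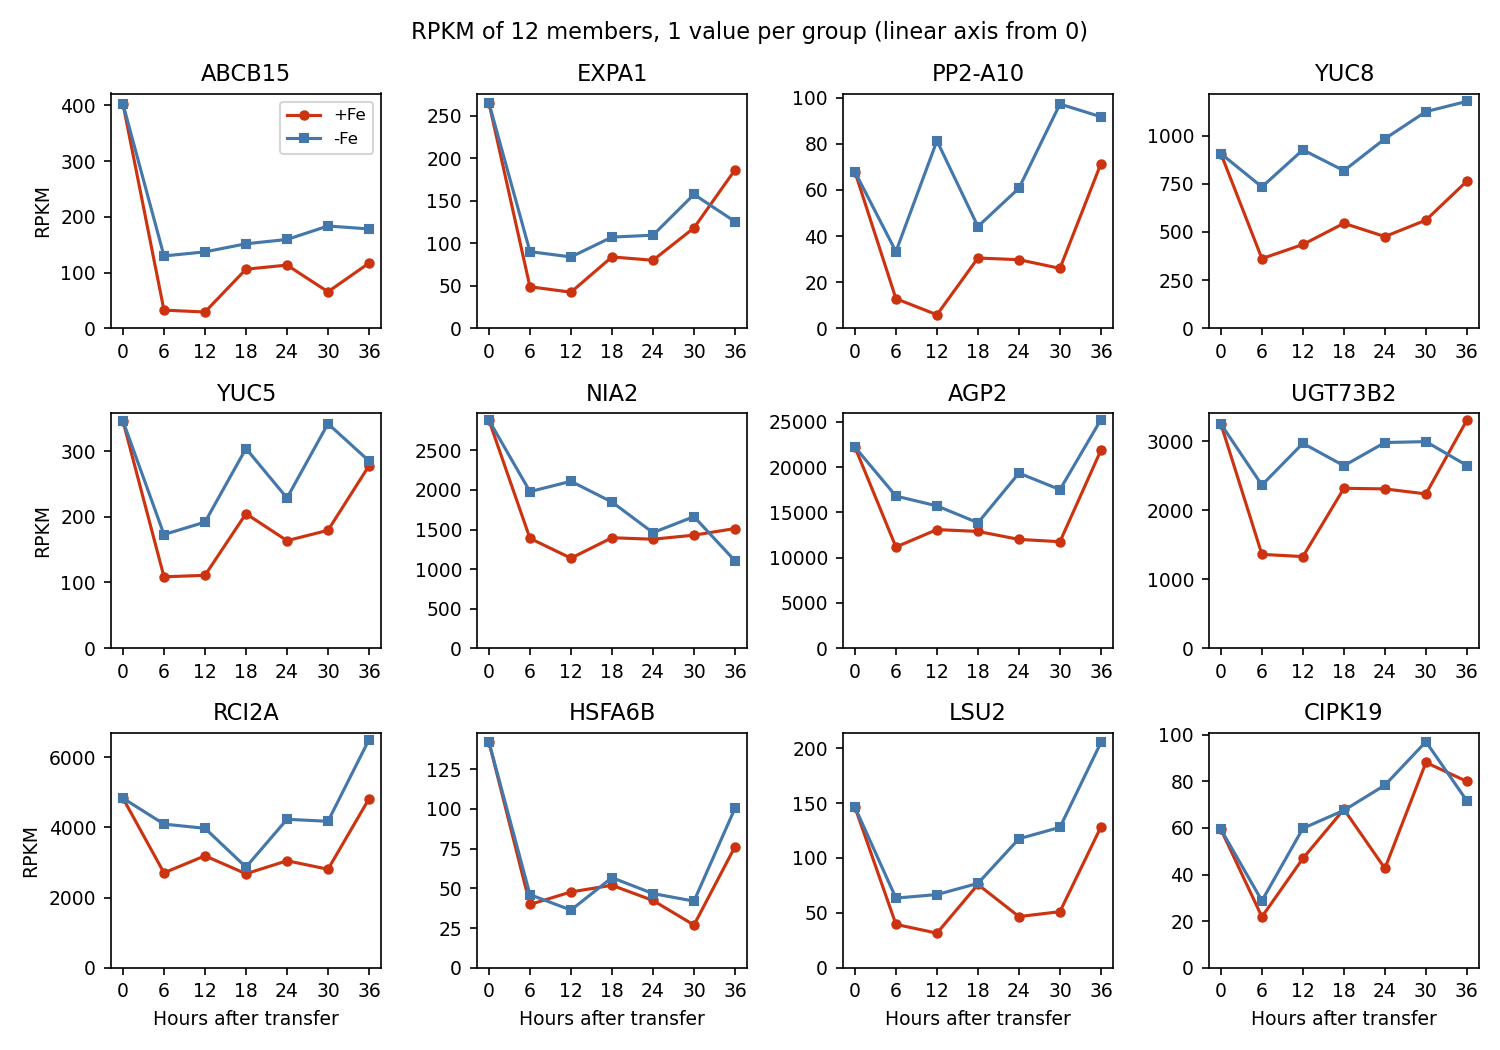
RPKM of 12 members against hours after transfer, 1 value per group, on +Fe (red circles) and -Fe medium (blue squares), with linear axes from 0 and the 0 h value of +Fe medium shared by both lines. All 12 are lower at 6 h on +Fe medium, and at 36 h ABCB15, NIA2 and HSFA6B are still lower there.

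Cell wall genes were the largest group with an assigned role, 29 of the 161 members. Their median log2 ratio was -1.07 at +Fe 6 h and -0.45 at -Fe 6 h, 8 of 29 were lower on -Fe medium at 6 h, and 28 recovered on +Fe and 26 on -Fe medium. Of all 806 genes, 7.07% were lower on -Fe medium at 6 h. At 36 h 94.7% of them on +Fe and 87.3% on -Fe medium stood above the limit. Roles were assigned to members only, so counts by role, here and below, are a description. By words in the annotation, 3 of the 5 expansin genes in the table were members (EXPA1, EXPB1 and the expansin-like EXLA2), 2 of 4 xyloglucan enzymes (XTH11 and XTH19, while the words did not catch EXGT-A3, an enzyme of this kind), 2 of 12 pectin enzymes, and 8 of 14 structural wall glycoproteins, which are arabinogalactan, fasciclin-like and hydroxyproline- or glycine-rich proteins. Of all 806 genes, 161 were members. At +Fe 6 h 1 of the 5 expansins and 2 of the 12 pectin enzymes were higher than at 0 h, and 0 genes of the other families named here were. Of all genes, 28.2% were higher there. EXPB1 (AT2G20750), a beta-expansin, had 182 RPKM at 0 h, 69.6 RPKM on +Fe and 128 RPKM on -Fe medium at 6 h, and 135 and 82.9 RPKM at 36 h. EXLA2 (AT4G38400) had 117 RPKM at 0 h, 46.6 RPKM on +Fe and 84.4 RPKM on -Fe medium at 6 h, and 97.2 and 77.2 RPKM at 36 h. All 3 expansins thus stood nearer to 0 h on +Fe than on -Fe medium at 36 h. XTH19 (AT4G30290), which cuts and rejoins xyloglucan, had 1538 RPKM at 0 h, 697 RPKM on +Fe and 904 RPKM on -Fe medium at 6 h, and 1192 and 1199.7 RPKM at 36 h. EXGT-A3 (AT2G01850), an enzyme of the same kind, had 108 RPKM at 0 h, 32.9 RPKM on +Fe and 53.0 RPKM on -Fe medium at 6 h, and 74.0 and 95.5 RPKM at 36 h. Both were lower on both media at 6 h.

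Among the arabinogalactan proteins, AGP12 (AT3G13520) had 1328 RPKM at 0 h, 366 RPKM on +Fe and 750.1 RPKM on -Fe medium at 6 h, and 1226 and 1138 RPKM at 36 h. AGP7 (AT5G65390) had 962 RPKM at 0 h, 319 RPKM on +Fe and 520.2 RPKM on -Fe medium at 6 h, and 664 and 564 RPKM at 36 h. AGP12 recovered on both media and AGP7 on +Fe medium alone, where it stood at -0.53 against -0.77 on -Fe medium. Enzymes that make nucleotide sugars for the wall were members as well. UGE2, which interconverts UDP-glucose and UDP-galactose, had 179 RPKM at 0 h, 58.1 RPKM on +Fe and 97.8 RPKM on -Fe medium at 6 h, and 143 and 159 RPKM at 36 h. MUR4, which makes UDP-arabinose, had 352 RPKM at 0 h against 184 on +Fe and 219 RPKM on -Fe medium at 6 h. UGD3, which makes UDP-glucuronic acid, had 3898 RPKM at 0 h against 2279.9 on +Fe and 2964 RPKM on -Fe medium at 6 h. GMD1, which starts the synthesis of GDP-fucose, had 4809 RPKM at 0 h against 2659 on +Fe and 3697 RPKM on -Fe medium at 6 h, but 1581 bases of its exons are shared with an antisense gene. UGE2 alone of these 4 was lower on -Fe medium, at -0.87. GALS1, a galactan synthase, and RGXT3, a xylosyltransferase for the pectin rhamnogalacturonan II, were at -1.15 and -0.81 on +Fe medium at 6 h and at -0.69 and -0.26 on -Fe medium.

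Auxin genes made up 6 members, with a median log2 ratio of -1.18 at +Fe 6 h and -0.49 at -Fe 6 h. All 6 recovered on both media, where 94.7% of all genes stood above the limit on +Fe and 87.3% on -Fe medium. YUC5 (AT5G43890) and YUC8 (AT4G28720) are flavin monooxygenases that turn indole-3-pyruvate into the auxin indole-3-acetic acid. YUC8 stood at 906 RPKM at 0 h and at 362, 435, 545, 476, 561 and 764 RPKM on +Fe medium. For YUC8, -Fe medium gave 734, 926, 818, 984, 1124 and 1177 RPKM. YUC5 stood at 346 RPKM at 0 h and at 109, 111, 205, 164, 179 and 278 RPKM on +Fe medium. For YUC5, -Fe medium gave 173, 192, 304, 229, 342 and 285 RPKM. YUC8 was low on +Fe medium alone and stood over its 0 h level on -Fe medium at 12 h and from 24 h on, with a gap between the media of 1.09 at 12 h, whereas YUC5 was lower on both media at 6 h, at -1.66 and -0.996. The other YUCCA genes in the table, YUC3 and YUC9, were at -0.73 and -0.28 at +Fe 6 h and so were no members. The acyl amido synthetases of the GH3 family, which join auxin or related acids to amino acids, had DFL1 and AT5G51470 as members. GH3.17 and GH3.1, at -0.24 and -0.49 at +Fe 6 h, were no members. GH3.3 was at -1.98 there but lay outside the band at 36 h, at 3.16. DFL1 had 128 RPKM at 0 h, 64.2 RPKM on +Fe and 76.6 RPKM on -Fe medium at 6 h, and 92.1 and 97.7 RPKM at 36 h. AT5G51470 had 238 RPKM at 0 h, 116 RPKM on +Fe and 161 RPKM on -Fe medium at 6 h, and 273 and 316 RPKM at 36 h. AT5G51470 ended over 0 h on both media and DFL1 under it on both. The small auxin-up RNA gene AT1G75590 had 80.0 RPKM at 0 h, 27.1 RPKM on +Fe and 59.5 RPKM on -Fe medium at 6 h, and 81.8 and 99.01 RPKM at 36 h. The PIN-like auxin carrier AT2G17500 had 2123 RPKM at 0 h, 1047 RPKM on +Fe and 1610.3 RPKM on -Fe medium at 6 h, and 1656 and 1674 RPKM at 36 h. ILL6, which splits hormone conjugates with amino acids, was at -1.15 on +Fe and -0.43 on -Fe medium at 6 h.

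Of 9 members tied to other hormones or to signalling peptides, 1 was lower on -Fe medium at 6 h, as were 7.07% of all genes. All 9 recovered on both media, where 94.7% of all genes stood above the limit on +Fe and 87.3% on -Fe medium. ACS8 (AT4G37770), which makes the ethylene precursor, had 508 RPKM at 0 h, 185 RPKM on +Fe and 319.8 RPKM on -Fe medium at 6 h, and 398 and 369 RPKM at 36 h. CKX4 (AT4G29740), which breaks down cytokinin, stood at 97.2 RPKM at 0 h and at 38.2, 30.4, 57.9, 45.2, 55.6 and 69.2 RPKM on +Fe medium. For CKX4, -Fe medium gave 56.0, 83.7, 67.8, 102, 176 and 109 RPKM. At 30 h CKX4 was lower than at 0 h on +Fe medium and higher on -Fe medium, at -0.79 and 0.85, the 1 member with opposite signs past the limit at the same time. The abscisic acid synthesis gene NCED5 (AT1G30100) stood at 20.4 RPKM at 0 h and at 10.7, 5.48, 21.5, 13.2, 16.8 and 17.6 RPKM on +Fe medium. For NCED5, -Fe medium gave 16.3, 20.2, 22.7, 15.5, 16.8 and 15.5 RPKM. It was low on +Fe medium at 12 h above all, with a gap between the media of 1.71. The peptide genes RTFL15, of the ROTUNDIFOLIA-like family that restrains cell proliferation, and CLE12, of the CLAVATA3-related family, were members too. RTFL15 had 199 RPKM at 0 h against 61.7 on +Fe and 123 RPKM on -Fe medium at 6 h. CLE12 had 577 RPKM at 0 h against 254 on +Fe and 401 RPKM on -Fe medium at 6 h. LOX4 and ST2A, which act in the synthesis and the inactivation of jasmonates, were at -0.80 and -0.83 at +Fe 6 h and above the limit on -Fe medium.

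Stress proteins were 14 members, with a median log2 ratio of -1.04 at +Fe 6 h and -0.52 at -Fe 6 h. Of these, 14 recovered on +Fe and 13 on -Fe medium, where 94.7% and 87.3% of all genes stood above the limit. RCI2A and RCI2B are adjacent genes for small hydrophobic membrane proteins that cold and salt induce. RCI2B (AT3G05890) stood at 10517 RPKM at 0 h and at 5819, 7517, 6261, 6802, 5826 and 8876 RPKM on +Fe medium. For RCI2B, -Fe medium gave 8633, 7189, 6910.3, 7078, 6939 and 10346 RPKM. RCI2A (AT3G05880) stood at 4829.8 RPKM at 0 h and at 2704, 3189.5, 2678, 3048, 2807 and 4812 RPKM on +Fe medium. For RCI2A, -Fe medium gave 4092, 3973, 2868, 4229, 4172 and 6497 RPKM. Both were about as low at 18 h on -Fe as on +Fe medium. AtLEA4-1 (AT1G32560), a LEA protein of the water-deficit response, had 255 RPKM at 0 h, 79.3 RPKM on +Fe and 164 RPKM on -Fe medium at 6 h, and 179 and 137 RPKM at 36 h, so that it was lower at 36 h on -Fe but not on +Fe medium. AT5G61820, annotated as a stress-induced Nod19 protein, had 5848 RPKM at 0 h, 2024 RPKM on +Fe and 3538 RPKM on -Fe medium at 6 h, and 5302 and 5158 RPKM at 36 h. AtCDC48B (AT3G53230), an AAA ATPase that extracts proteins for degradation, had 453 RPKM at 0 h, 154 RPKM on +Fe and 228 RPKM on -Fe medium at 6 h, and 449 and 479.6 RPKM at 36 h. The metacaspase MC3 (AT5G64240) had 961 RPKM at 0 h, 542 RPKM on +Fe and 759 RPKM on -Fe medium at 6 h, and 1053 and 1247 RPKM at 36 h. The gap between the media at 12 h was 1.25 for AT5G61820, 1.37 for AtCDC48B and 1.35 for MC3.

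Since several members are known cold or dehydration genes, the 250 bases before each gene's annotated start in the RefSeq annotation of TAIR10.1 were searched on both strands for 9 short motifs. The core of the dehydration-responsive element (DRE), ACCGAC, was in 18 of 160 member windows (11.2%). It was in 4.36% of the 642 windows of the other genes and in 4.7% of 27443 windows of all genes. The W-box (TTGACC or TTGACT) was in 30%, 31.6% and 28.4% in the same order. For the G-box (CACGTG) the shares were 7.5%, 9.35% and 6.49%, and for the longer ABRE-like ACGTGGC, which can overlap a G-box, 1.25%, 4.98% and 3.37%. The evening element core AATATCT was in 13.8%, 10.4% and 10%, and the auxin element TGTCTC in 11.9%, 9.81% and 10.9%. The GCC box (GCCGCC) was in 1.25%, 1.4% and 1.87%, the telo box (AAACCCT) in 4.38%, 4.83% and 7.33% and site II (TGGGCC) in 6.88%, 7.01% and 13.7%. A match is a run of letters, not a bound site. The windows of AtLEA4-1, RCI2A and the stress-induced zinc finger gene PMZ are printed 5′ to 3′ on the strand of the gene, to show the DRE core (capitals, or its reverse complement GTCGGT) in members of this kind. AtLEA4-1 lies on the plus strand at chr1:11774234-11774483, RCI2A on the minus strand at chr3:1756925-1757174 and PMZ on the plus strand at chr3:10520193-10520442, all in TAIR10.1.
AtLEA4-1: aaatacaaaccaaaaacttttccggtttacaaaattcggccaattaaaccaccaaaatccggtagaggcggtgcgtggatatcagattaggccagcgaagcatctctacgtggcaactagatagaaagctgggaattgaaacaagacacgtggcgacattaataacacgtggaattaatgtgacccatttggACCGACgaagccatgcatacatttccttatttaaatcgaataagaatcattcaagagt
RCI2A: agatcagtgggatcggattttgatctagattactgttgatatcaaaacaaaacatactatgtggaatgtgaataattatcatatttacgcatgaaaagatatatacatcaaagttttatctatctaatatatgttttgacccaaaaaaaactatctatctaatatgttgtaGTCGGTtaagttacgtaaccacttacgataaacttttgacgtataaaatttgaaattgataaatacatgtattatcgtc
PMZ: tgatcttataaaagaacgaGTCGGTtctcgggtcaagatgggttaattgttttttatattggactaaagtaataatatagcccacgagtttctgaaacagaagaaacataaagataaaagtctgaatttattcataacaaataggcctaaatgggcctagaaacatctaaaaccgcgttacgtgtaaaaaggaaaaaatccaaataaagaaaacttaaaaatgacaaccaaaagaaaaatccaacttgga
AtLEA4-1 carries the core close to the gene's start, and PMZ far from it on the other strand. Other motifs of the search stay in lower case, among them the G-box and the ABRE-like motif in the AtLEA4-1 window. At +Fe 6 h the log2 ratio to 0 h was -1.67 for AtLEA4-1, -0.84 for RCI2A and -1.57 for PMZ.

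Transcription regulators were 16 members, of which 3 were lower on -Fe medium at 6 h, 14 recovered on +Fe and 15 on -Fe medium. Of all genes, 7.07% were lower on -Fe medium at 6 h, and 94.7% and 87.3% stood above the limit at 36 h on +Fe and -Fe medium. PMZ (AT3G28210), an AN1-type zinc finger protein of the stress response, stood at 1268 RPKM at 0 h and at 426, 457, 681, 796, 688 and 1316 RPKM on +Fe medium. For PMZ, -Fe medium gave 659, 911, 628, 1123, 931 and 1182 RPKM. It was low on both media at 6 h and had regained its 0 h level at 36 h on +Fe medium. DEAR2 (AT5G67190), a repressor of the DREB family, which binds DRE elements, had 195 RPKM at 0 h, 97.2 RPKM on +Fe and 177 RPKM on -Fe medium at 6 h, and 174 and 202 RPKM at 36 h, and was thus near 0 h on -Fe medium at both times. The homeodomain-leucine zipper gene HB4, of the shade response, had 38.2 RPKM at 0 h against 19.0 on +Fe and 23.1 RPKM on -Fe medium at 6 h. ANAC087 and NAC046 are NAC factors that act in root cap cell death. ANAC087 had 421 RPKM at 0 h against 193 on +Fe and 311 RPKM on -Fe medium at 6 h. NAC046 had 558 RPKM at 0 h against 323 on +Fe and 484 RPKM on -Fe medium at 6 h. The bZIP gene TGA7, of the salicylate response, had 206 RPKM at 0 h against 112 on +Fe and 149 RPKM on -Fe medium at 6 h. AT3G10470, a C2H2 zinc finger gene, had 37.1 RPKM at 0 h, 10.8 RPKM on +Fe and 21.7 RPKM on -Fe medium at 6 h, and 19.9 and 15.3 RPKM at 36 h, and recovered on neither medium.

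Detoxification and P450 genes were 13 members, and 7 of them were higher on -Fe than on +Fe medium at 12 h, as were 21.7% of all members and 10.8% of all genes. Of the 18 cytochrome P450 genes in the table, 6 were members and 6 others were higher at +Fe 6 h than at 0 h. Of all 806 genes, 161 were members and 28.2% were higher at +Fe 6 h. UGT73B2 (AT4G34135), a UDP-glucosyltransferase that acts on flavonoids and foreign compounds, stood at 3249 RPKM at 0 h and at 1359, 1327, 2317, 2307, 2235 and 3306 RPKM on +Fe medium. For UGT73B2, -Fe medium gave 2363, 2969, 2644, 2980.1, 2993 and 2647 RPKM. Its level on +Fe medium at 6 and 12 h was well under that on -Fe medium and was back at the 0 h level at 36 h. UGT75B1 (AT1G05560) had 821 RPKM at 0 h, 380.1 RPKM on +Fe and 695 RPKM on -Fe medium at 6 h, and 917 and 805 RPKM at 36 h, with 2136 bases of its exons shared with an antisense gene. CYP709B2 (AT2G46950) had 1461 RPKM at 0 h, 414 RPKM on +Fe and 834 RPKM on -Fe medium at 6 h, and 940.2 and 938 RPKM at 36 h. CYP81D11 (AT3G28740), induced by reactive compounds, had 4496 RPKM at 0 h, 2516 RPKM on +Fe and 3549 RPKM on -Fe medium at 6 h, and 4893 and 3289 RPKM at 36 h. The glutathione transferase GSTU24 was at -0.85 and -0.31 on +Fe and -Fe medium at 6 h, and the alternative NADH dehydrogenase NDA1 at -0.94 and -0.20. THAS1 and CYP708A2, neighbouring genes, make and oxidise the root triterpene thalianol. THAS1 had 741 RPKM at 0 h, 328 RPKM on +Fe and 536 RPKM on -Fe medium at 6 h, and 480.1 and 368 RPKM at 36 h. CYP708A2 had 919 RPKM at 0 h, 539 RPKM on +Fe and 799 RPKM on -Fe medium at 6 h, and 696 and 691 RPKM at 36 h. THAS1 ended lower on -Fe medium, at -1.01, and the value of CYP708A2 is less certain because its sequence has near-identical stretches elsewhere in the genome.

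Nitrogen and polyamine genes were 6 members. NIA2 (AT1G37130), the main nitrate reductase, stood at 2882 RPKM at 0 h and at 1388, 1137, 1396, 1377, 1429 and 1512 RPKM on +Fe medium. For NIA2, -Fe medium gave 1979.7, 2109.7, 1848, 1461, 1663 and 1104 RPKM. It was lower at all 6 times on +Fe medium and reached its lowest level on -Fe medium at 36 h, at -1.38, so it moved away from the 0 h level where most members moved back to it. CIPK23 (AT1G30270), the kinase that acts on the nitrate transporter NRT1.1 and on potassium channels, had 192 RPKM at 0 h, 101 RPKM on +Fe and 153 RPKM on -Fe medium at 6 h, and 126 and 170.4 RPKM at 36 h. From a list of 17 nitrate response genes, 6 were in the table: 4 were lower at +Fe 6 h, NIA2 and CIPK23 as members and NRT1.1 and NIA1 outside the band at 36 h, and LBD39 and NRT3.1 were higher, at 1.07 and 1.47. Among all 806 genes, 23.4% were lower and 28.2% higher at +Fe 6 h. NRT1.1 went from 319 RPKM at 0 h to 90.7 RPKM on +Fe and 370.1 RPKM on -Fe medium at 36 h. The asparaginase ASPGB1 had 355 RPKM at 0 h, 187 RPKM on +Fe and 314 RPKM on -Fe medium at 6 h, and 179 and 242 RPKM at 36 h. The arginine decarboxylases ADC2 and ADC1, which open polyamine synthesis, were at -1.11 and -0.76 on +Fe and -0.70 and -0.40 on -Fe medium at 6 h. AT3G25790, a myb-like factor of the family that holds the nitrate-induced HRS1, had 213 RPKM at 0 h, 68.1 RPKM on +Fe and 118 RPKM on -Fe medium at 6 h, and 134 and 164 RPKM at 36 h.

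Lipid genes were 7 members, transport genes 7 and kinases 4. Beside PATL1 and ABCB15, NPC3, a phospholipase C that acts on membrane lipids without phosphoinositides, had 72.9 RPKM at 0 h, 20.4 RPKM on +Fe and 32.9 RPKM on -Fe medium at 6 h, and 56.9 and 58.2 RPKM at 36 h. PLDP2, a phospholipase D of root growth under low phosphate, had 277 RPKM at 0 h against 138 on +Fe and 192 RPKM on -Fe medium at 6 h. The calcium pump gene AT3G63380 stood at 63.6 RPKM at 0 h and at 22.0, 11.4, 21.0, 14.4, 17.5 and 41.6 RPKM on +Fe medium. For AT3G63380, -Fe medium gave 36.0, 50.6, 21.2, 45.1, 53.7 and 45.9 RPKM. It was lowest on +Fe medium at 12 h, where the gap between the media was 2.05. The tonoplast aquaporin TIP4;1 had 825 RPKM at 0 h, 427 RPKM on +Fe and 624 RPKM on -Fe medium at 6 h, and 653 and 455 RPKM at 36 h. The sugar transporter ESL1, induced by drying, had 809 RPKM at 0 h against 409 on +Fe and 607 RPKM on -Fe medium at 6 h. TIP4;1 and the magnesium transporter-like AT3G23870 recovered on +Fe medium but not on -Fe medium, at -0.86 and -0.76 at 36 h. The kinase CIPK25, like CIPK19, was lower on both media at 6 h, at -1.25 and -0.88, and recovered on both.

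The remaining 50 members have another or no known role, among them AT5G55110, a STIG1-like secreted protein, with 6708 RPKM at 0 h against 3459 on +Fe and 4698 RPKM on -Fe medium at 6 h. PCAP1, a protein that binds calcium, phosphoinositides and microtubules, had 3878 RPKM at 0 h, 2219 RPKM on +Fe and 3128 RPKM on -Fe medium at 6 h, and 2879 and 2247 RPKM at 36 h. The serine carboxypeptidase-like scpl25 had 622 RPKM at 0 h against 205 on +Fe and 376 RPKM on -Fe medium at 6 h. PCAP1 was within the limit on -Fe medium at 6 h and lower there at 36 h, as were 17 members in all. This joint count was made for the members only, and at -Fe 36 h 14.9% of members and 12.7% of all genes were lower. Genes of the other lists were mostly not members: 0 of 10 iron deficiency genes in the table, 0 of 3 iron storage genes, 0 of 4 sugar starvation genes, 0 of 2 early stress genes and 0 of 1 phosphate starvation gene, RNS1, while LSU2 was the 1 sulfur deficiency gene in the table. RNS1 and the iron storage gene FER1 were lower at +Fe 6 h, at -2.59 and -1.60, but lay outside the band at 36 h. No clock or jasmonate list gene was analysed here. All 4 sugar starvation genes were higher at +Fe 6 h, as were 28.2% of all genes.

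The exons of 27 members overlap those of another gene, in 2 on the same strand, and their values are less certain. The members lie on all 5 chromosomes, 43 on chromosome 1, 21 on chromosome 2, 35 on chromosome 3, 22 on chromosome 4 and 40 on chromosome 5, and 4 pairs are neighbours. These are RCI2A and RCI2B, THAS1 and CYP708A2, hemb2 and ILL6, and AT4G26880 and the kinase gene MAPKKK16.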

How the data were processed

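RNA of sorted root epidermal protoplasts was sequenced by the authors with single-end reads, 39 libraries in 13 groups of 3. Per the methods and labels, the authors used fastQC and fastq-mcf to clean the reads, tophat2 for mapping to TAIR10 and RSubread for RPKM. The deposited table of 806 genes holds 1 RPKM value for each gene in each group. The cDNA kit differs between the methods and the labels. How values of 3 libraries became 1, the read total, the annotation and the use of strand are not given in the sources used here, and the depth is unknown, so no interval or floor was computed. All 13 columns were used.

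Log2 ratios of RPKM + 1 were counted at 0.75, the size threshold of the study. The planned model on values per library could not be fitted to 1 value per group, so differences carry no test. Recovery at 36 h means a ratio to 0 h above -0.75. Members, lists, roles and named genes were chosen with earlier results of these data known. Values were given for the 10 members with the largest fall at 6 h on +Fe, the 6 with the largest fall on -Fe, the 6 with the largest ratio between the media, the 5 highest at 0 h, the 5 lowest and the 5 highest at 36 h, and up to 4 members of each list. For some of these all times are shown, and for others only some times or ratios. The other members shown were chosen after their values were seen. Roles were assigned by hand, and gene families were matched by words in the RefSeq product names without regard to case. Families whose words also caught unrelated names are not reported.

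Names, exon lengths, overlaps and the 250 bases before each gene's start came from RefSeq's annotation of TAIR10.1, in which all 806 IDs matched. Near-identical sequence elsewhere (97% identity over 125 bases or more) was searched with blastn 2.17.0. Coordinates of TAIR10.1 are given only for sequences read from it. Alternative settings were a threshold of 1, a pseudocount of 0.1 or of 10, only genes with a mean of 1 RPKM or more, centring each group on its median over genes, the mean of +Fe 0 h and +Fe 36 h as the start, and recovery as at least 50% of the fall regained. The counting was tested on simulated data. Python 3.11.15, numpy 2.4.6, pandas 2.3.3 and matplotlib 3.10.9 were used.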

Additional observations from a re-analysis of the deposited data

Results flagged for a closer look

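CKX4 at 30 h stood past the limit in opposite directions on the media, at -0.79 on +Fe and 0.85 on -Fe medium against 0 h on the log2 scale, a difference of 1.65. This difference between single values was not tested.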

How the results depend on the processing

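No paired analysis was possible because the table holds 1 value per group, and for the same reason no replicate could be left out. Of the 17 counts, all kept within 1.5 times under a pseudocount of 0.1 and a minimum mean of 1 RPKM (which removed no gene). The stricter recovery, run for the 2 counts of recovered members, gave 127 on +Fe and 123 on -Fe medium. A pseudocount of 10 gave 160 members, 155 of them shared, with 2 higher on -Fe medium at 18 h. Centred on the group medians there were 174 members, all 161 among them. Of these, 68, 3 and 53 were higher on -Fe medium at 6, 18 and 24 h, and 11 and 16 were lower than at 0 h on -Fe medium at 24 and 30 h. Counts under the alternative settings, here and below, were made for the members only, with no share over all genes.

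With the threshold at 1 there were 99 members, 91 of them shared, of which 22 were also lower at 6 h on -Fe medium, 93 recovered on +Fe and 85 on -Fe medium, and 12, 17, 2, 13 and 11 were higher on -Fe than on +Fe medium at 6, 12, 18, 24 and 30 h. Under it 55, 35, 41 and 41 were lower than at 0 h on +Fe and 16, 21, 13 and 13 on -Fe medium at 12, 18, 24 and 30 h. This setting makes the limit stricter and the band at 36 h wider, and these were not separated. With the mean of +Fe 0 h and +Fe 36 h as the start there were 126 members, 123 of them shared, of which 20 were also lower at 6 h on -Fe medium, 0 were higher on -Fe medium at 18 h, 41 and 41 were lower than the start on +Fe medium at 18 and 30 h, and 11, 24, 5 and 10 on -Fe medium at 12, 18, 24 and 30 h. The cause of these differences was not tested. Of 112 values of the 28 named members, 14 fell inside the limit with that start, 4 with a pseudocount of 10 and 3 passed it when centred, and no value past the limit changed sign. Some values near 0 did. The unknown depth limits all values.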
